A study of Drosophila melanogaster with 6 samples.

Results

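The 9 genes described here encode transcription factors and a corepressor, grouped as photoreceptor identity factors of the Drosophila melanogaster eye: gl, Pph13, oc, svp, B-H1, B-H2, salm, salr and nvy. They were chosen by symbol, with earlier results of these data known. They were matched by FlyBase identifier and found in all 6 expression tables, as 9 of 17753 gene identifiers. All 9 passed the filter on low counts, Pph13 through its eye disc libraries alone. Polyadenylated RNA had been sequenced from 3 libraries of eye discs and 3 libraries of antennal discs, each from a pool of 30 discs from larvae of the third instar. All larvae carried the genotype yw;+;+, so both tissues share the yellow and white mutations and no transgene. Each eye disc is joined to an antennal disc in the animal, and the tissues were parted by hand. The samples of a tissue are called biological replicates in the labels, and p-values measure the spread between those pools.

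In the third instar eye disc, differentiation sweeps across the epithelium behind the morphogenetic furrow, and cells join each ommatidium in a fixed order to become photoreceptors R1 to R8. A set of transcription factors then separates the photoreceptor types. Glass acts in cells behind the furrow, Seven-up and the Spalt and Bar proteins mark pairs of outer photoreceptors, and Pph13 and Orthodenticle act late, on rhabdomeres and rhodopsin genes. Several of these genes are used again elsewhere, the Bar and Spalt genes in the developing antenna and orthodenticle (oc) in the head and ocelli.

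The libraries held 17583649 to 29093995 estimated counts, a depth at which 3 counts correspond to 0.1 to 0.192 CPM (counts per-million of the library after TMM scaling). That floor covers counting error only. The eye markers eya, so and ey were all higher in eye disc, with a summed level of 751 to 839 CPM in eye disc, against 67.0 to 88.6 CPM in antennal disc. The antennal markers Dll, ss and disco summed to 28.2 to 43.1 CPM in eye disc, against 356 to 463 CPM in antennal disc, so neither tissue was free of the other's markers. Other cell types moved with the tissue as well. Of 7 neuronal markers 6 were higher in eye disc (summed level 853 to 1390 CPM against 97.8 to 115 CPM in antennal disc), of 6 glial markers 5 were (348 to 400 CPM in eye disc against 200.3 to 225 CPM in antennal disc), and of 6 hemocyte markers 5 were (528 to 662 CPM in eye disc against 296 to 369 CPM in antennal disc). Most of the glial sum is nrv2 (272 CPM in eye disc against 199.9 CPM in antennal disc), and the median log2 fold change of the glial markers was 2.53. No muscle marker of 5 was higher in eye disc and 1 was higher in antennal disc (118 to 374 CPM in eye disc against 404 to 531 CPM in antennal disc), and none of 3 fat body markers was called. No marker was at 0 in any library, and the part of these cell types in the results was not tested. Eye disc replicate 2 stood apart, with the fewest counts, 12.5% of them in its top 10 genes against 6.25% to 6.75% in the other libraries, and a fat body sum of 17793 CPM against 2152 to 5093 CPM in the others. The neuronal sum was highest in eye disc replicate 3, at 1390 CPM, against 991 CPM in replicate 1 and 853 CPM in replicate 2.

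All 9 genes were higher in eye disc than in antennal disc, and in each of them every eye disc library lay above every antennal disc library. Over all 9901 genes tested, 14.6% were called higher in eye disc, 11.7% were called higher in antennal disc, and 23.4% had all eye disc libraries above all antennal disc libraries. The median log2 fold change, eye disc over antennal disc, was 2.00 over the 9 genes and 0.0046 over all tested genes. The 9 were chosen with earlier results of these data known, so the contrast with all genes is not independent of the data. The size of the difference ranged widely among the 9, from 22.3-fold for gl to 1.28-fold for salr. In bulk tissue, fewer cells that express a gene and less of its RNA per cell cannot be told apart. Without eye disc replicate 2 all 9 remained called, and the largest move of a log2 fold change was 0.08, for oc.

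**Figure D1:**
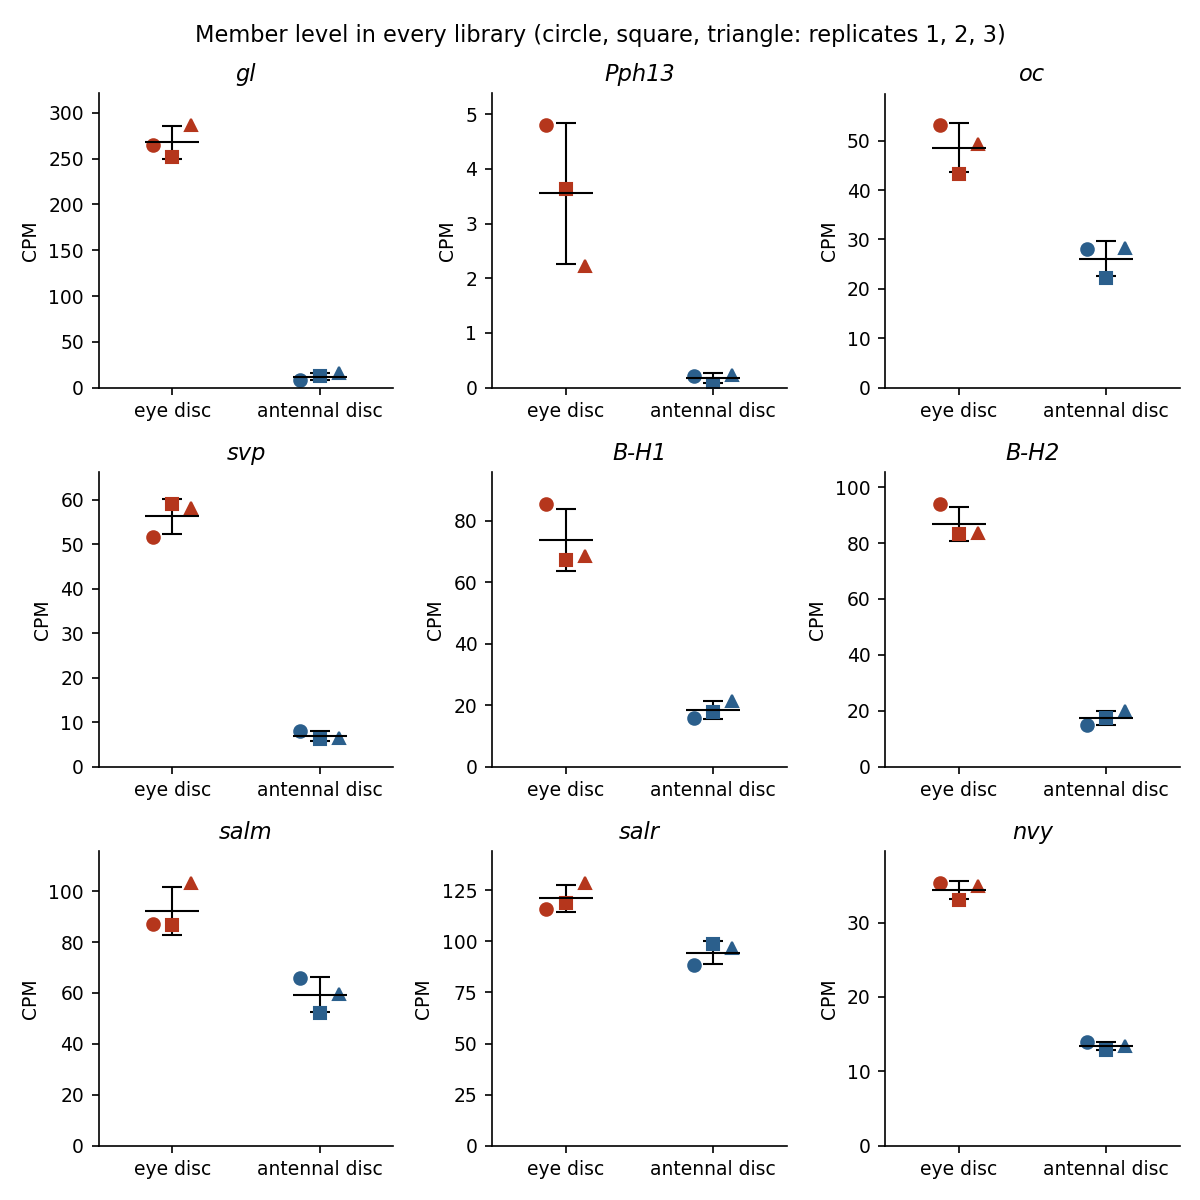
Level of each of the 9 genes in every library, in CPM on linear axes that start at 0; points are libraries, horizontal bars are group means and error bars are the SD over 3 libraries. No panel shows an eye disc library at or below an antennal disc library; gl has the widest gap in CPM, and the salr panel has the narrowest gap relative to its own axis.

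gl encodes Glass, the zinc finger factor that photoreceptors need to differentiate, and lies on the minus strand of 3R (FBgn0004618, 18367927 to 18372738 in dm6). It stood at 264, 252 and 287 CPM in eye disc replicates 1, 2 and 3, and at 7.88, 12.2 and 16.0 CPM in antennal disc replicates 1, 2 and 3. The lowest eye disc library was thus 15.8 times the highest antennal disc library. Its log2 fold change was 4.48 ± 0.27 (SE), with an adjusted p of 0.000212. Every adjusted p comes from the quasi-likelihood test of edgeR and was adjusted over all genes tested by the Benjamini-Hochberg method, unless limma is named. Only 0.737% of tested genes had a larger log2 fold change. The eye disc libraries were close together, with a coefficient of variation of 6.58%, while the antennal disc libraries varied by 33.7%.

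Pph13 is a homeobox gene whose product acts in photoreceptors on rhabdomere formation and rhodopsin expression (FBgn0023489, 2L, 577486 to 579549, plus strand). It had the lowest level of the 9 genes, 4.80, 3.64 and 2.22 CPM in the eye disc libraries and 0.215, 0.0669 and 0.230 CPM in the antennal disc libraries. These values rest on 126, 57 and 58 counts in eye disc, against 6, 2 and 6 counts in antennal disc, so replicate 2 of antennal disc lies under the floor of 3 counts. Pph13 differed by 4.35 ± 0.59 on the log2 scale (edgeR adjusted p = 0.00296), with the largest SE of the set. Since it passed the filter on low counts only through eye disc, its direction adds little to the count of 9. Unlike gl, it varied between the eye disc libraries (coefficient of variation 36.4%), and eye disc replicate 1 was the highest.

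oc, also called orthodenticle, encodes a homeodomain factor of the head, the ocelli and later the photoreceptors (FBgn0004102, X, 8630159 to 8650681, minus strand). Its level was 53.2, 43.3 and 49.3 CPM in eye disc, against 28.0, 22.1 and 28.3 CPM in antennal disc. The difference of 0.90 ± 0.12 on the log2 scale (edgeR adjusted p = 0.00336) was far smaller than that of Pph13, the other late factor. oc is the member that also appears in the deposited lists of genes by genomic region, in a region from 8606417 to 8685913 on X with Rubicon and CAH3. In that region neither neighbour was called: Rubicon had a log2 fold change of 0.09 and CAH3 of -0.15 (edgeR adjusted p = 0.456 and 0.105).

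svp encodes Seven-up, an orphan nuclear receptor related to the COUP factors of vertebrates, which is needed in the outer photoreceptors R3, R4, R1 and R6 (FBgn0003651, 3R, 12258737 to 12302785, plus strand). It was at 51.8, 59.1 and 58.1 CPM in eye disc, against 8.10, 6.12 and 6.48 CPM in antennal disc. The log2 fold change was 3.03 ± 0.13 (edgeR adjusted p = 4.15e-05), an 8.16-fold difference. svp is the only member whose span overlaps other genes: 7 genes cover 16.4% of it, and of these CG17738 took 63.6, 160 and 149 counts in eye disc and 62.7, 188 and 88.1 counts in antennal disc. With the counts of all 7 added to those of svp, the log2 fold change was 2.52 (edgeR adjusted p = 7.46e-05).

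B-H1 and B-H2 are the Bar homeobox genes, neighbours on the plus strand of X that mark photoreceptors R1 and R6 and also pattern the distal antenna. B-H1 (FBgn0011758, X, 17397478 to 17403278) was at 85.4, 67.1 and 68.6 CPM in eye disc, against 15.8, 17.9 and 21.5 CPM in antennal disc. B-H2 (FBgn0004854, X, 17314581 to 17324175) was at 94.0, 83.1 and 83.8 CPM in eye disc, against 14.9, 17.3 and 19.8 CPM in antennal disc. Both genes were highest in replicate 1 of eye disc and in replicate 3 of antennal disc. The log2 fold change was 2.00 ± 0.15 for B-H1 (edgeR adjusted p = 0.000311) and 2.33 ± 0.12 for B-H2 (edgeR adjusted p = 6.86e-05).

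The share of B-H2 in the Bar pair was larger in every eye disc library, in a design too small for an exact test to reach a p of 0.05. Counts were divided by the length of each gene's span, and B-H2 then held 39.9%, 42.8% and 42.5% of the pair's total in eye disc and 36.2%, 36.9% and 35.7% in antennal disc. The groups did not overlap, and the means were 41.7% ± 1.57 in eye disc and 36.3% ± 0.598 in antennal disc (SD, n = 3 each), a difference of 5.45 percentage points. An exact two-sided permutation test gave p = 0.1, the smallest that 3 against 3 libraries allow. Within equal replicate numbers the share of B-H2 was larger in eye disc by 3.73, 5.88 and 6.73 points, with p = 0.25 in an exact two-sided sign-flip permutation test, the smallest that 3 pairs allow. Over the lengths of annotated exons, a scale added after the values were seen, the difference was 5.71 points with B-H2 at 50.7% in eye disc and 45.0% in antennal disc.

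salm and salr encode the Spalt zinc finger proteins, which mark R3 and R4 in the larval eye disc, R7 and R8 later, and cells of the second antennal segment. salm (FBgn0261648, 2L, 11434311 to 11445614, minus strand) was at 87.0, 86.8 and 103 CPM in eye disc, against 66.0, 52.2 and 59.6 CPM in antennal disc. salr (FBgn0000287, 2L, 11358873 to 11373636, plus strand) was at 116, 119 and 129 CPM in eye disc, against 88.3, 98.7 and 96.6 CPM in antennal disc. These were the smallest differences of the set, 0.64 ± 0.11 on the log2 scale for salm and 0.36 ± 0.07 for salr (edgeR adjusted p = 0.00784 and 0.0107). Of all tested genes, 26.1% had a larger log2 fold change than salr. The Spalt genes were thus well expressed in both tissues, and antennal disc held 64.2% of the eye disc mean of salm and 78.0% of that of salr.

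By span length salr held 50.5%, 51.2% and 48.8% of the Spalt pair in eye disc and 50.6%, 59.1% and 55.4% in antennal disc. The groups overlapped, since antennal disc replicate 1 lay within the range of the eye disc libraries. The difference of the means was -4.86 percentage points (50.2% ± 1.22 in eye disc and 55.0% ± 4.28 in antennal disc, SD, n = 3 each), with p = 0.2 in an exact two-sided permutation test whose smallest possible p is 0.1. Within equal replicate numbers the differences were -0.096, -7.95 and -6.54 points, all of one sign, and an exact two-sided sign-flip permutation test gave p = 0.25, the smallest that 3 pairs allow. The difference of the means was -2.81 points without antennal disc replicate 2 and -7.08 points without antennal disc replicate 1.

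nvy, nervy, encodes a homologue of the mammalian ETO corepressors and acts in sensory organ development and axon guidance (FBgn0005636, 2R, 24275734 to 24291084, plus strand). It was at 35.3, 33.0 and 34.9 CPM in eye disc, against 14.0, 12.8 and 13.3 CPM in antennal disc. Replicates were closer together than for any other member in both tissues, with coefficients of variation of 3.57% in eye disc and 4.40% in antennal disc. The log2 fold change was 1.36 ± 0.07 (edgeR adjusted p = 6.86e-05), so that nvy stood between the Bar genes and oc.

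**Figure D2:**
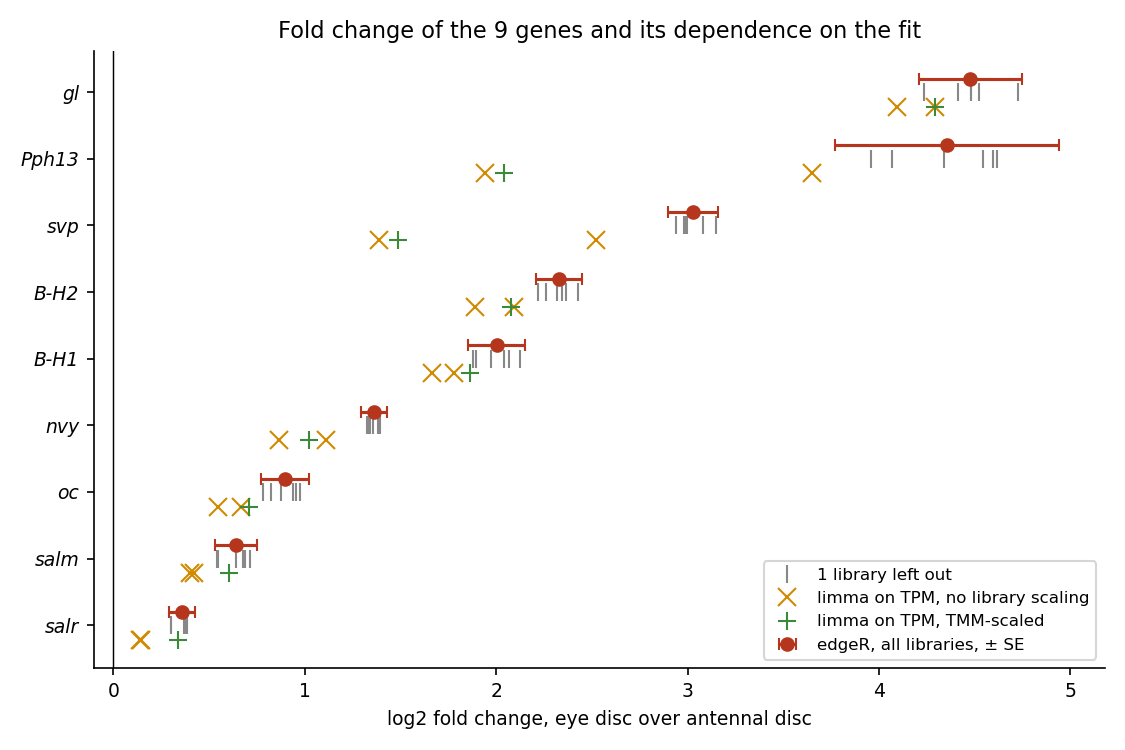
Log2 fold change of each of the 9 genes, eye disc over antennal disc. Red points with bars are the edgeR estimate ± SE over all libraries, and grey ticks are fits with 1 library left out. Crosses are limma fits on log2 of TPM plus a constant, without TMM scaling (orange) and with TMM scaling (green). All points lie to the right of 0, from 0.14 for salr to 4.73 for gl.

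The deposited TPM values gave a less clear picture for the members with small differences. TPM had been divided by the length of the whole gene span and carried no TMM scaling between libraries. On that scale eye disc replicate 2 was the lowest eye disc library for all 9 genes. salr was at 18.3, 11.6 and 21.1 TPM in eye disc and at 14.2, 15.5 and 15.2 TPM in antennal disc, and the ranges of salm and oc overlapped between the tissues too. In limma on log2(TPM + 1), where 5.86% of tested genes were called higher in eye disc, 5 of the 9 genes were called, and salm, salr, nvy and oc were not (limma adjusted p = 0.513, 0.796, 0.0673 and 0.337). On log2(TPM + 0.1), where 6.77% of tested genes were called higher in eye disc, the same 4 members were missed. After TMM scaling of the TPM columns, an alternative chosen after seeing the data, 13.3% of tested genes were called higher in eye disc and all 9 members were.

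Levels of different genes were compared per kilobase of annotated exons, since most reads of polyadenylated RNA come from exons. In eye disc gl was highest, at 78.7 ± 5.18 CPM per kb (SD, n = 3), well above B-H2 at 27.7 ± 1.94 and B-H1 at 27.1 ± 3.73 CPM per kb, whose ranges overlapped. salr followed at 21.9 ± 1.20 and salm at 15.1 ± 1.54 CPM per kb. svp, nvy and oc could not be ordered, at 10.1 ± 0.711, 9.83 ± 0.351 and 9.64 ± 0.986 CPM per kb with overlapping ranges. Pph13 was last at 1.89 ± 0.688 CPM per kb.

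In antennal disc the order was different, with the Spalt genes on top. salr was at 17.1 ± 0.995 and salm at 9.69 ± 1.13 CPM per kb (SD, n = 3). B-H1 at 6.76 ± 1.06, B-H2 at 5.51 ± 0.782 and oc at 5.18 ± 0.689 CPM per kb overlapped, each with the next. nvy at 3.83 ± 0.168 and gl at 3.54 ± 1.19 CPM per kb overlapped as well, and svp at 1.23 ± 0.188 and Pph13 at 0.0908 ± 0.0480 CPM per kb came last. gl, first among the 9 in eye disc, was thus seventh in antennal disc on this scale. The order depends on the length used. By deposited TPM gl came after salr, salm and B-H1 in antennal disc, at 5.98 TPM, and its range overlapped that of B-H1. svp, whose span of 44.0 kb holds 5.59 kb of exons, was sixth in eye disc by exon length and ninth by deposited TPM.

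**Figure D3:**
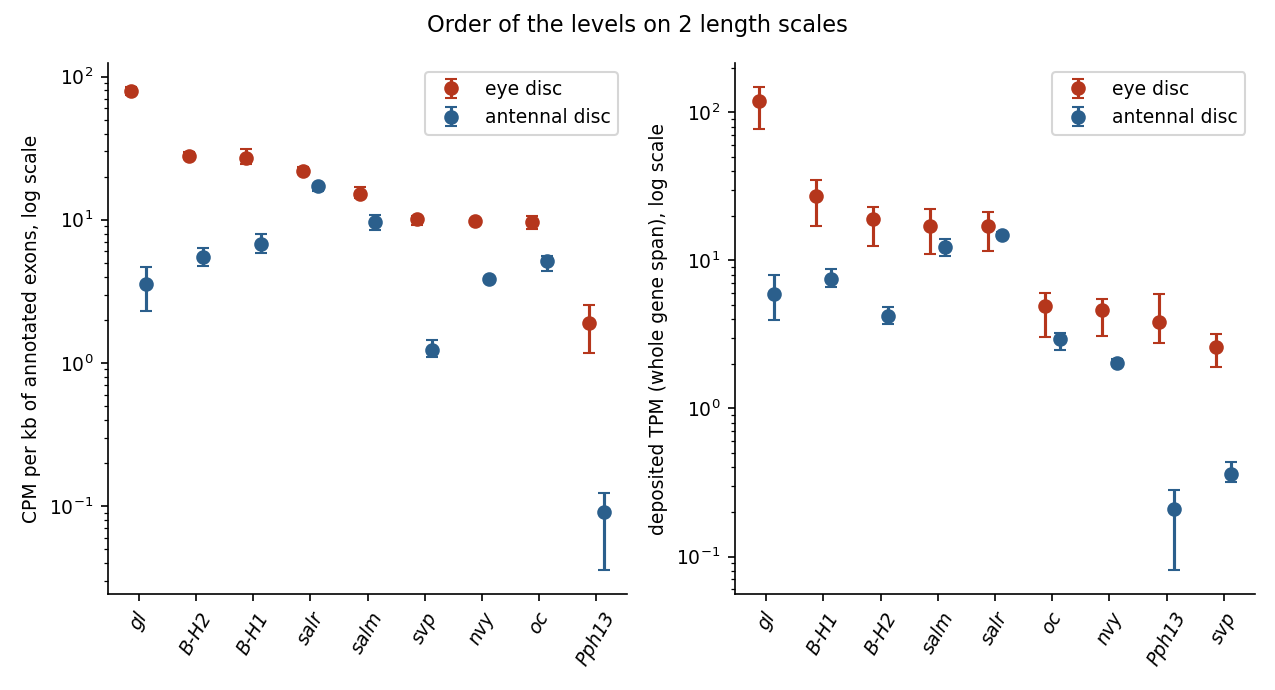
Mean level of the 9 genes in each tissue, ordered by eye disc level, as CPM per kb of annotated exons (left) and as deposited TPM (right), on log axes; bars run from the lowest to the highest of 3 libraries. gl tops both eye disc orders, and svp falls from sixth to ninth place between the scales.

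The remaining signal in antennal disc separated the members. Antennal disc held 4.50% of the eye disc mean of gl, 4.80% for Pph13, 12.2% for svp, 19.9% for B-H2, 25.0% for B-H1, 38.9% for nvy and 53.8% for oc, beside the values of the Spalt genes above. The same share was 8.52% for eya, 11.0% for ey and 11.6% for so. Among the 7 neuronal markers it ran from 4.52% for the active zone gene brp and 4.96% for Appl, through 7.49% for nSyb, 9.57% for futsch and 9.88% for fne, to 15.9% for Syt1 and 22.1% for elav. The value of fne depends on eye disc replicate 3, with 16.4, 7.09 and 88.5 CPM in eye disc replicates 1, 2 and 3. It was not called (edgeR adjusted p = 0.0735). Another gene covers 98.6% of the span of elav. gl and Pph13 thus stood below the 3 eye markers, and the Bar genes, nvy, oc and the Spalt genes stood above them. The place of Pph13 rests on 6, 2 and 6 counts in the antennal disc libraries, with a coefficient of variation of 52.9%. svp stood close to so, and without antennal disc replicate 1 its share was 11.2%, against 11.8% for so. Within antennal disc, gl, B-H1, B-H2 and the eye markers eya, ey and so were each lowest in replicate 1 and highest in replicate 3. The antennal markers Dll and ss had the same order, while disco was lowest in replicate 2 (79.4, 78.5 and 92.7 CPM in replicates 1, 2 and 3). svp, salm and nvy were highest in replicate 1. The part of eye tissue in the antennal disc libraries in these values was not tested.

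**Figure D4:**
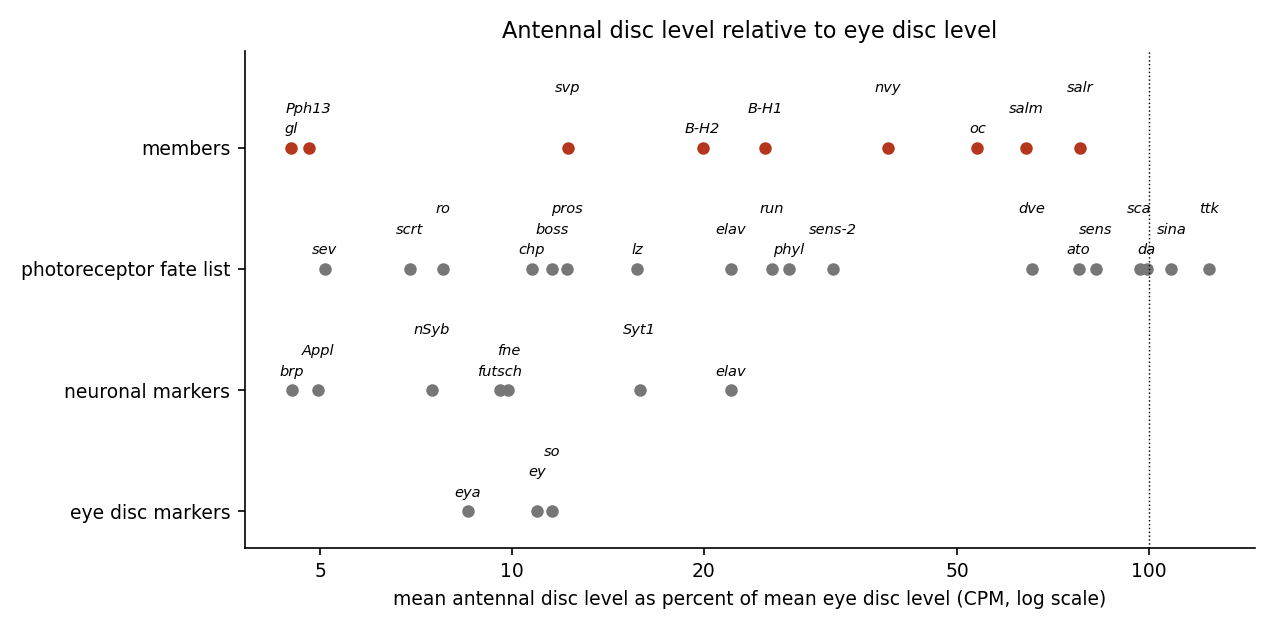
Mean antennal disc level as percent of the mean eye disc level (log axis) for the 9 genes (red), the tested genes of the photoreceptor fate list, neuronal markers and eye disc markers (grey); the dotted line is at equal levels. gl and Pph13 lie near 5%, the neuronal markers run from 4.52% for brp to 22.1% for elav, and the Spalt genes and oc lie above 50%.

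Partner genes of photoreceptor specification were mostly higher in eye disc, although several early and shared ones were not. Of 19 genes in this list 18 were tested, and 14 passed toward eye disc, 1 passed toward antennal disc and 3 did not pass, with a median log2 fold change of 1.92. Over all tested genes 14.6% passed toward eye disc and 11.7% toward antennal disc, with a median of 0.0046. The largest differences were in sev, the receptor tyrosine kinase of R7 (376 ± 22.1 CPM in eye disc, against 19.1 ± 3.02 CPM in antennal disc), in the zinc finger gene scrt (247 ± 26.8 CPM in eye disc, against 17.1 ± 2.12 CPM in antennal disc) and in ro, the homeobox gene of R2 and R5 (34.9 ± 3.12 CPM in eye disc, against 2.72 ± 1.04 CPM in antennal disc; SD, n = 3 each). Their log2 fold changes were 4.30, 3.85 and 3.68, and 83.8% of the span of ro is covered by another gene. lz, the Runt factor that acts upstream of the Bar genes in R1 and R6, was at 126 ± 5.05 CPM in eye disc, against 19.8 ± 1.94 CPM in antennal disc, a log2 fold change of 2.67 beside 2.00 and 2.33 for the Bar genes. The early genes sca and da and the R7 gene sina were not called, at log2 fold changes of 0.05, 0.01 and -0.12. Other genes cover 72.9% of the span of sca and 100% of that of sina. ttk was higher in antennal disc (-0.31, edgeR adjusted p = 0.0446), a call that held in 1 of the 6 fits with 1 library left out, the fit without eye disc replicate 1. Calls in eye disc direction were also lost for sens in all 6 of these fits, for pros and ato without any 1 of the antennal disc replicates, and for dve without eye disc replicate 1 or antennal disc replicates 1 or 2.

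Late photoreceptor genes, among them the rhodopsins that Pph13 and Orthodenticle are known to regulate, were low in both tissues apart from inaC, norpA and Galphaq. Of 18 genes 11 were tested, 1 passed toward eye disc, 1 toward antennal disc and 9 did not pass (median log2 fold change 0.37). With 14.6% of all tested genes passing toward eye disc and 11.7% toward antennal disc, 1 of 11 in each direction is near those shares. The kinase gene inaC was at 42.0 ± 4.17 CPM in eye disc, against 1.40 ± 0.497 CPM in antennal disc (log2 fold change 4.91, edgeR adjusted p = 0.000147). norpA and Galphaq, the phospholipase C and G protein genes of phototransduction, were at 130 and 83.2 CPM in eye disc, against 128 and 57.2 CPM in antennal disc, and neither was called. The largest of the others were prom (2.31, edgeR adjusted p = 0.102) and ninaC (-2.07, edgeR adjusted p = 0.0443). The call of ninaC held in 1 of the 6 fits with 1 library left out, the fit without eye disc replicate 3. ninaE, the rhodopsin gene of R1 to R6, was at 0.170 CPM in eye disc, against 0.0717 CPM in antennal disc, too low to test, and Rh5 and Rh6 were at 1.75 and 2.13 CPM in eye disc, against 1.44 and 1.82 CPM in antennal disc.

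Genes that act with the members outside the eye went mostly the other way. Of 12 antennal partners, 2 (dan and danr) passed toward eye disc, 9 toward antennal disc and 1 (ap) did not pass, with a median log2 fold change of -1.86. The shares over all tested genes were 14.6% toward eye disc and 11.7% toward antennal disc. Another gene covers 100% of the span of dan. Dll, disco and disco-r led, at -4.08, -3.39 and -3.16, while the Bar and Spalt genes themselves were higher in eye disc. This list includes the antennal markers Dll, ss and disco given above, whose direction was already known. C15, a homeobox gene of the distal antenna and leg tip, was at -0.60, a call that held in 1 of the 6 fits with 1 library left out, the fit without antennal disc replicate 2. It did not pass with replicate as a block (edgeR adjusted p = 0.0528). Of 11 genes that act with oc in the ocellar region and head, 3 passed toward eye disc, 6 toward antennal disc and 2 did not pass (median -0.95), beside the same shares over all tested genes. The largest were eya at 3.55, so at 3.11 and the head gene btd at -3.16, so that oc, at 0.90, lay between the eye genes and the head genes of its list. Here too, eya and so had been given above as eye markers.

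The Bar and Spalt paralogs are separated by long stretches with few genes. B-H2 and B-H1 are 73.3 kb apart and salr and salm are 60.7 kb apart, with 1 annotated noncoding gene in each gap that reached no more than 0.153 CPM in any library. Within 100 kb of the ends of B-H1, 6 other genes were tested and none was higher in eye disc, and the same held for 10 genes around B-H2, 6 around salm and 7 around salr. The windows of B-H1 and B-H2 share 5 of these genes, and over all tested genes 14.6% were higher in eye disc, so that windows of this size would hold few such genes at that share. CG8611, 9.99 kb from B-H1, was lower in eye disc (log2 fold change -0.39, edgeR adjusted p = 0.00679). On the side of salr away from salm, ab, cmet, cana and mre11 were lower in eye disc, with log2 fold changes of -1.15, -0.56, -0.48 and -0.32. Around svp none of 18 tested genes was higher in eye disc and 5 were lower there (11.7% over all tested genes), among them GstD1, GstD3 and GstD9, members of a gene family. How the counting divided reads among the genes of this family was not tested.

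Around gl, 5 of 22 tested neighbours within 100 kb were higher in eye disc. CG15803 was at 4.76 CPM in eye disc, against 0.581 CPM in antennal disc, CG14312 at 3.07 CPM in eye disc, against 0.224 CPM in antennal disc, and CG18599 at 3.95 CPM in eye disc, against 0.134 CPM in antennal disc. The noncoding gene CR44946, 1.80 kb from gl, was at 1.23 CPM in eye disc, against 0.0359 CPM in antennal disc, where it had 3 counts in all. The fifth, Dlc90F, had a log2 fold change of 0.24. The other 17 included Nup43, which lies 13 bases from the end of gl and was lower in eye disc (log2 fold change -0.32). Around nvy 2 of 12 tested neighbours were higher in eye disc, around Pph13 3 of 17 and around oc 3 of 21, shares near the 14.6% of all tested genes. CG18599 and CG14312 had 11 and 19 counts in all in antennal disc. Like CR44946, they passed the filter on low counts through eye disc, so a call toward antennal disc was hardly possible for them. Whether the share around gl differs from that of other genes was not tested.

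**Figure D5:**
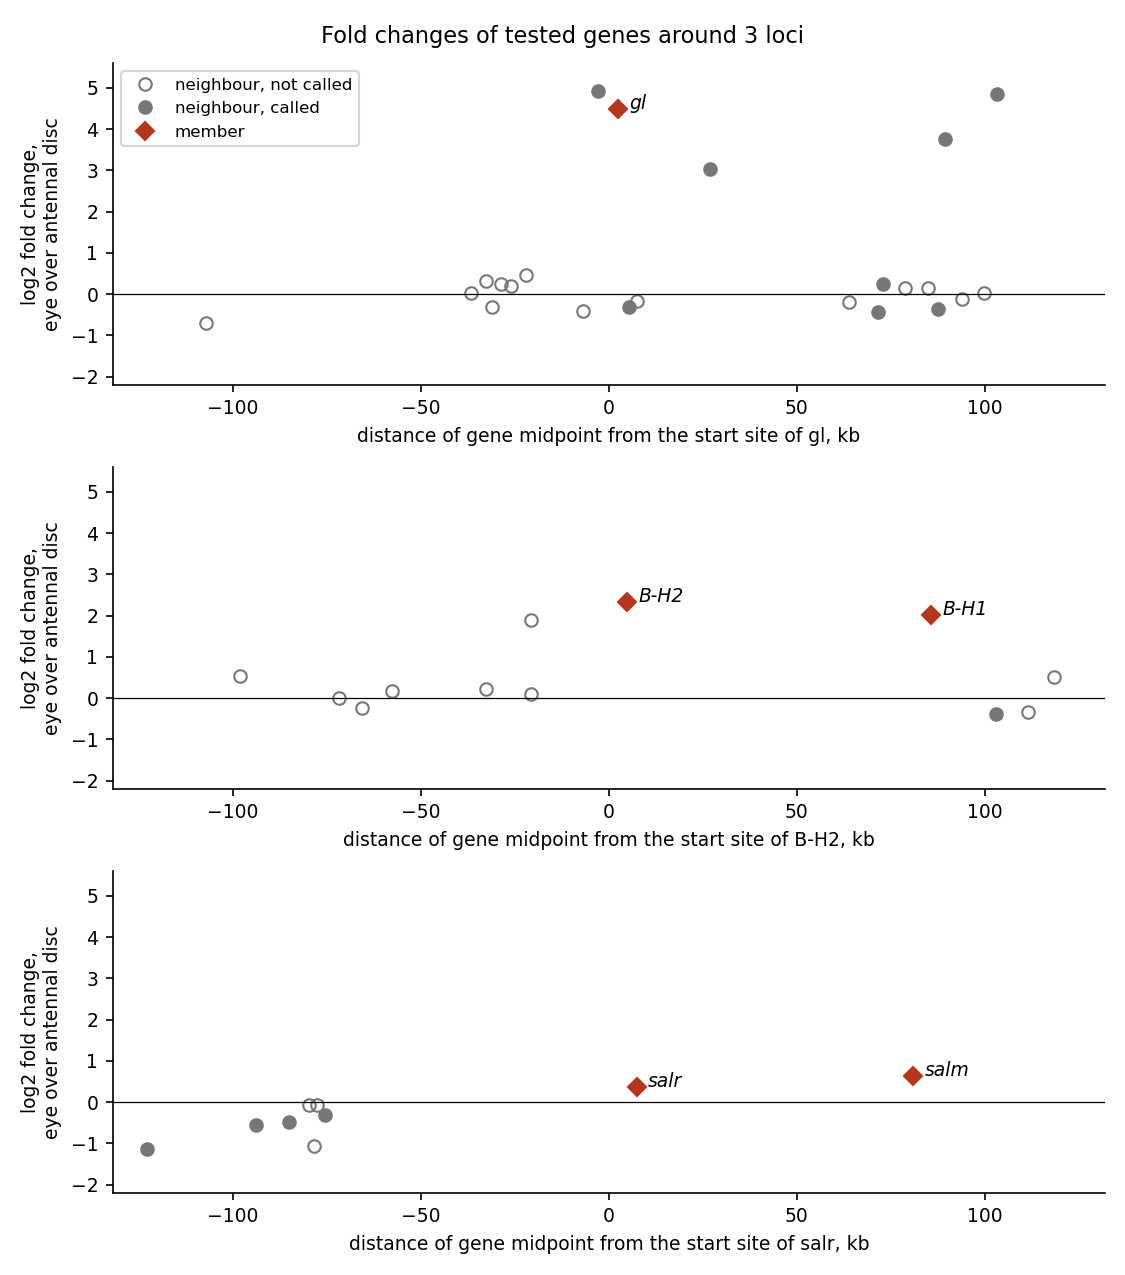
Log2 fold change, eye disc over antennal disc, of tested genes within 100 kb of gl, B-H2 and salr, against the distance of each gene's midpoint from the start site of the named member in its direction of transcription. Diamonds are the members, filled circles are called neighbours and open circles are neighbours that were not called; no neighbour of B-H2 or salr was called higher in eye disc, in windows of 10 and 7 tested genes beside a share of 14.6% over all tested genes.

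For each member the tested gene with the nearest profile over the 6 libraries was looked up, by the root mean square difference of log2 CPM after centring each gene on its own mean. gl was nearest to Cow (0.114), svp to the zinc finger gene peb (0.128), B-H1 to the cell cycle phosphatase gene stg (0.0747), B-H2 to the eye determination gene toy (0.101) and nvy to aop, the ETS repressor also called yan (0.0393). salm was nearest to spri (0.0583) and salr to CG12253 (0.0313). For Pph13 the nearest gene, CG1090, was less close (0.305), and for oc it was CG31674 (0.0586), which stood under 1 CPM in every library and was not called itself. The measure takes in the difference between the tissues as well as the spread between replicates.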

How the data were processed

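The authors deposited 1 expression table per sample, holding a TPM value (transcripts per-million) and an estimated count for every FlyBase gene identifier; per the file headers the columns are those that kallisto writes. The submitters' processing notes name kallisto, bedtools, FastQC and dm6. For versions, annotation release and strand setting, nothing is given in the sources used here. Symbols, spans and exons came from an Ensembl annotation in dm6 coordinates, which matched 17622 identifiers. The listed gene length equals the whole span, introns included, for 99.3% of them, and 47.6% of spans overlap another. The other deposited file of each sample groups genes by genomic region and repeats their TPM.

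The deposited estimated counts were rounded, filtered with filterByExpr, scaled by TMM and tested by quasi-likelihood in edgeR 4.0.16 (R 4.3.3; robust fit without covariates), eye disc over antennal disc. P-values of 9901 genes were adjusted by the Benjamini-Hochberg method, and a gene was called at an adjusted p under 0.05. The SE was derived from the fold change and the F statistic (size of the log2 fold change over √F). Shares within paralog pairs were compared with scipy 1.17.1. The edgeR steps were tested on simulated counts. Alternatives used DESeq2 1.42.0, limma 3.58.1 on log2 of the deposited TPM plus 1 or 0.1, other filters, and each library left out. The members and lists were chosen with earlier results of these data known. The genes named are all members, the 3 largest absolute log2 fold changes of each list, the nearest profile to each member and genes overlapping a member; other list genes and the neighbours were chosen after their values were seen.

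Samples of equal replicate number deviated together from their tissue means, with correlations across genes of 0.415, 0.308 and 0.242 for numbers 1, 2 and 3. Between samples of unequal number the correlations ran from -0.43 to 0.0819. Deviations from a tissue mean cancel within each gene, so the values for equal and unequal numbers are tied and are not separate evidence. The labels do not say what the numbers share, so the pairing rests on this check. Replicates differed by more than sampling noise (chi-square per degree of freedom 15.4 to 335), and each was counted as a sample.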

Additional observations from a re-analysis of the deposited data

How the results depend on the processing

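All 9 genes stayed higher in eye disc under every alternative, and all 9 were called under DESeq2, DESeq2 size factors, both count filters, the replicate block and each of the 6 fits without 1 library. With the replicate number as a block, 1614 genes were called toward eye disc and 1397 toward antennal disc, against 1449 and 1161 without it. The block changed no call of the 9 genes and left both paralog differences, 5.45 and -4.86 points, past no threshold (pairing of shares added after seeing the data); in the lists it ended those of sens (edgeR adjusted p = 0.0706), pros (0.064) and C15. On TPM without TMM scaling the calls fell. limma on log2(TPM + 1) called 580 genes toward eye disc, 227 toward antennal disc and 5 of the 9 genes, and on log2(TPM + 0.1) 670, 242 and 5. The log2 fold changes on these scales were 0.40 and 0.42 for salm, 0.14 and 0.14 for salr, 0.87 and 1.11 for nvy, and 0.55 and 0.67 for oc, none called. In these fits the median of all genes was -0.18 and -0.20, and 71.9% and 73.5% of the calls were toward eye disc, against 55.5% in edgeR. With TMM-scaled TPM the calls were 1319, 1145 and 9, and the median was 0.0098. Leaving out 1 library gave 919 to 1462 genes toward eye disc and 520 to 1117 toward antennal disc, 919 and 596 without antennal disc replicate 2 and 947 and 520 without antennal disc replicate 3. In these fits 0 to 1 genes of the photoreceptor fate list and 0 to 1 of the late photoreceptor list were higher in antennal disc. Depth limits Pph13 most, with 14 counts over the antennal disc libraries.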
